A study of Rattus norvegicus with 311 samples.

Results

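Cytosolic ribosomal proteins are the protein parts of the ribosome that translates messenger RNA outside mitochondria. The large subunit (Rpl genes) holds the site where peptide bonds form, and the small subunit (Rps genes) holds the site where the message is read. Their messenger RNAs are known in mammals for a run of pyrimidines at the 5′ end, the 5′ TOP element, through which growth signals set their translation as a group. In a hepatocyte they are among the most abundant transcripts. The 55 probes described here were the rows of the count table whose gene name was Rpl or Rps with a number, an optional a, x or y and an optional l ending, together with Rplp0 and Rpsa. They were 55 of 22253 probe rows and carried 50 gene names: 22 probes of the large subunit, 16 of the small subunit, 12 of paralogues, and 5 whose name matched no gene in the rat RefSeq table. The paralogue name Rpl31l3 also had no match there. No probe carried the plain name Rplp1, Rplp2, Rpl13a or Rps18.

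The libraries came from primary hepatocytes of male Sprague Dawley rats, grown in 2 dimensions on collagen-coated plates either with non-parenchymal liver cells (co-culture) or alone (monoculture). In both cultures, cells received phenobarbital (0.1, 1 or 10 mM), gemfibrozil (10, 100 or 1000 µM), GW7647 (0.01, 0.1 or 1 µM), ketoconazole (1, 10 or 30 µM) or the untreated vehicle control for 24 h before lysis on day 1, 3 or 7 after plating. The unit of the phenobarbital doses is that of the study's design text, while the dose labels of the single libraries give the same figures in µM. Phenobarbital is an inducer of drug-metabolizing enzymes, gemfibrozil and GW7647 are ligands of the fatty acid receptor PPARα, and ketoconazole is an antifungal azole. Expression was read with TempO-Seq, in which pairs of detector oligonucleotides are ligated on the transcript and counted. The 311 libraries (155 of co-culture and 156 of monoculture) fell into 78 groups, of which 65 had 4 libraries, 7 had 3 and 6 had 5. Each library's label named 1 of 5 assay plates (1, 3, 5, 7 and 9), and a plate held up to 1 library of a group. No label says which animals or cell lots the libraries came from, so a p-value reflects the variation among wells as labelled, part of which may be technical.

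The median library held 6054414 counts (412414 to 12272575), the smallest being a monoculture well with 30 µM ketoconazole on day 7. Levels are given in CPM, counts scaled to a common library size after trimmed-mean (TMM) adjustment, and shares as raw percent of a library's counts. A probe's level depends on its own ligation as well as on its transcript, so levels were not compared between genes. Ribosomal protein genes have many near-identical copies in mammalian genomes, and which copies a probe also reads was not tested. In bulk libraries like these, fewer cells of a type and less RNA per cell cannot be told apart. The 47 or fewer probes tested in a comparison were those that passed a low-count filter. Summed over their 25 probes, hepatocyte genes reached 55300 to 126000 CPM in vehicle libraries on day 1, and 1 of these genes (Cyp2c7) was at 0 in all of them. On that day the markers of other liver cells did not separate the cultures: 20 stellate and mesenchymal probes summed to 122 to 528 CPM in co-culture and 109 to 440 CPM in monoculture, and 20 macrophage probes to 243 to 381 CPM in co-culture and 167 to 386 CPM in monoculture.

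The first bases of the transcripts are shown because the 5′ TOP element is the feature these genes are best known to share. The windows are from RefSeq (build GRCr8) and run from 10 bases before the annotated start to 20 bases from it, 5′ to 3′ on the gene's strand. Capitals mark CTTT or CTCT, overlapping where they join, within the 15 bases from 5 before the start to 10 from it. The first 4 hold such a motif, and the last 3 do not although their probes are among those described most closely here.
Rpl35 (chr3:43165902-43165931, minus strand): cttcctCTTTCTCTcgaaccgggcggcctc
Rpl28 (chr1:78083513-78083542, minus strand): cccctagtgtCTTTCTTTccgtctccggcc
Rps14 (chr18:56498250-56498279, plus strand): ccgtctCTCTCTTTccggtggaggagtctg
Rplp0 (chr12:46718371-46718400, minus strand): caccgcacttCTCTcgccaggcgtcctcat
Rps6 (chr5:106420521-106420550, minus strand): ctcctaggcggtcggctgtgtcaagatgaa
Rpl5 (chr14:1995206-1995235, minus strand): ctttcccacgtcgcttgcgtcctggaggtg
Rpl26 (chr10:54109682-54109711, plus strand): gtcaacttacagaaccggaagtcgcatgta
Of 33 promoter rows for 32 of the gene symbols, 14 (42.4%) held CTTT or CTCT in that 15-base stretch, against 3728 of all 33469 promoter rows (11.1%). The reverse complement of the motifs was in 0 of 33 rows (0.0%), against 12.4% of all rows. A match describes these letters at an annotated start and not a working element, and the annotated start need not be the one used in these cells.

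Ribosomal protein transcripts took a smaller share of the library the longer the cells were kept. Over all groups the 55 probes together made up a median of 3.25% of counts on day 1 (range 1.57 to 5.18%, n = 104), 3.03% on day 3 (0.964 to 6.2%, n = 104) and 2.16% on day 7 (0.795 to 4.71%, n = 103). In vehicle wells alone the medians were 3.49%, 2.81% and 1.68% on days 1, 3 and 7 (n = 8 each). The vehicle wells of co-culture held 1.30, 1.33, 3.11 and 2.83% on day 7 (plates 1, 3, 5 and 7), against 3.06, 3.48, 3.80 and 3.97% on day 1. In monoculture they held 1.55, 0.933, 1.81 and 2.17% on day 7, against 3.21, 2.52, 3.50 and 3.93% on day 1. Day 7 was below day 1 on every plate in both cultures, but in co-culture the day 7 well of plate 5 lay within the day 1 range and that of plate 7 just under it, while those of plates 1 and 3 lay far under it. Among the 8 vehicle wells of day 7, the share was highest in those co-culture wells, which also had 11082 and 11472 probes over 1 CPM, against 11362 to 12502 in the other 6. The part of these plate differences in the results below was not tested.

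**Figure D1:**
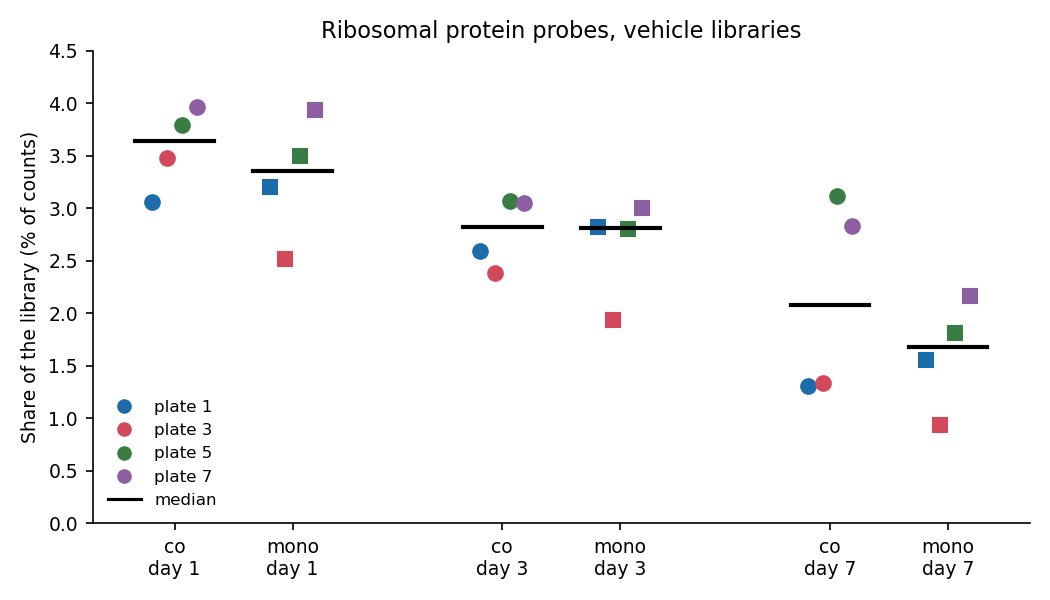
Share of all counts in a library (%) taken by the 55 ribosomal protein probes in vehicle wells, by day and culture. Each point is 1 library coloured by plate and bars are medians of 4; the day 7 co-culture points split into 1.30 and 1.33% against 3.11 and 2.83%.

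The decline was spread over nearly all tested genes of both subunits. Between day 7 and day 1 in vehicle wells of both cultures, 34 of 42 tested probes fell and 0 rose (edgeR's quasi-likelihood test, Benjamini-Hochberg adjusted p under 0.05), against 18.6% of all 11687 probes tested that fell and 24.4% that rose. Their median log2 fold change was -1.28, beside 0.13 for all probes. Of the 8 culture and plate pairs, day 7 was below day 1 in all 8 for 21 probes and in 7 for 16 more. These pairs were not counted for all probes, so no background share stands beside them. Library totals in place of TMM scaling moved the median of all probes by 0.58 and that of the ribosomal protein probes to -0.82, with 29 falling and 3 rising. The median TMM factor was 1.27 on day 7, against 0.823 on day 1, and the distance of the ribosomal protein median from that of all probes was -1.41 with TMM scaling and -1.53 with library totals.

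Large subunit probes fell in 18 of 21 cases. Rpl26, a protein near the peptide exit tunnel, had 293, 281, 1022 and 910 CPM in co-culture and 420, 224, 440 and 773 CPM in monoculture on day 7 (probe 47183, plates 1, 3, 5 and 7), against 1612, 1970, 2107 and 2009 CPM in co-culture and 1645, 891, 1997 and 2202 CPM in monoculture on day 1. Only the day 1 monoculture well of plate 3 lay among the day 7 values. The fold change was -1.74 ± 0.30 (log2 ± SE, adjusted p 6.63e-05). Rpl5, which carries the 5S ribosomal RNA into the subunit and can bind Mdm2, had 482, 603, 2291 and 1652 CPM in co-culture and 723, 357, 1008 and 1246 CPM in monoculture on day 7. On day 1 it had 3477, 3499, 3060 and 3602 CPM in co-culture and 3351, 1767, 2863 and 3507 CPM in monoculture. These groups overlapped through the day 7 co-culture well of plate 5, and the fold change was -1.61 ± 0.29 (adjusted p 0.000118).

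Rpl15, a core protein of the large subunit, had the smallest standard error of the 42 probes and was the only one whose 8 day 7 wells all lay below its 8 day 1 wells. It had 154, 188, 318 and 218 CPM in co-culture and 135, 168, 222 and 177 CPM in monoculture on day 7, against 395, 378, 340 and 432 CPM in co-culture and 392, 326, 357 and 362 CPM in monoculture on day 1. The fold change was -0.92 ± 0.17 (adjusted p 0.000141). The share of all probes whose 2 days separate in the same way was not computed. Rpl28 averaged 410 ± 239 CPM on day 7 and 1128 ± 236 CPM on day 1 (SD, n = 8 each), a fold change of -1.47 ± 0.26 (adjusted p 0.000109). Rpl35, the most abundant signal of the family at a mean of 4972 CPM over all libraries, averaged 2697 ± 1460 CPM on day 7 and 6448 ± 1271 CPM on day 1 (n = 8 each), -1.28 ± 0.27 (adjusted p 0.000513). The 2 Rpl3 probes, which read a protein next to the peptidyl transferase centre, gave -1.03 ± 0.26 and -0.97 ± 0.24 (adjusted p 0.00229 and 0.00245). The lowest estimates were those of Rpl26 probe 44545 (-2.36 ± 0.68) and Rpl12 (-2.11 ± 0.62), at means of 2.3 and 1.5 CPM over all libraries. Rplp0, the base of the ribosomal stalk and a common reference gene, did not pass: it averaged 73.6 ± 44.7 CPM on day 7 and 106 ± 10.8 CPM on day 1 (n = 8 each), -0.57 ± 0.25 (adjusted p 0.0728). The other large subunit probes that did not pass were Rpl26 probe 35362 (-1.33, adjusted p 0.0617) and Rpl21 (-1.20, adjusted p 0.231).

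Small subunit probes fell in 13 of 14 cases. Rps6, which S6 kinase phosphorylates, had 1296, 1343, 3958 and 3320 CPM in co-culture and 1406, 936, 1786 and 2092 CPM in monoculture on day 7 (plates 1, 3, 5 and 7), against 3921, 5637, 7927 and 6421 CPM in co-culture and 4301, 3485, 6363 and 6503 CPM in monoculture on day 1. Each day 7 well was below the day 1 well of its plate and culture, and the days overlapped only through the co-culture well of plate 5. The fold change was -1.50 ± 0.27 (adjusted p 0.000106). Rps27a, which is made as a fusion with ubiquitin, had 390, 447, 2426 and 1573 CPM in co-culture and 670, 287, 777 and 1203 CPM in monoculture on day 7. On day 1 it had 2747, 2649, 2613 and 2871 CPM in co-culture and 2445, 1039, 2473 and 2652 CPM in monoculture, and the fold change was -1.36 ± 0.34 (adjusted p 0.00234). The day 1 monoculture well of plate 3 lay among the day 7 values. Rpsa, which is also a laminin receptor, fell by 1.04 ± 0.29 on the log2 scale (adjusted p 0.00533), and Rps19, a gene mutated in human Diamond-Blackfan anaemia, by 1.31 ± 0.37 (adjusted p 0.00606). The probe that did not pass was Rps15 probe 44401 (-0.97, adjusted p 0.105), while the other Rps15 probe fell (-0.74 ± 0.23, adjusted p 0.0131).

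Paralogues and unmatched rows behaved less uniformly. Of 5 paralogue probes tested, Rpl10l (-1.76 ± 0.42, adjusted p 0.00171), Rpl36al (-1.34 ± 0.29, adjusted p 0.000767) and Rps19l1 (-1.20 ± 0.34, adjusted p 0.00634) fell, the last being annotated as a pseudogene. Rpl7l1, which acts in the maturation of the large subunit precursor, gave -0.32 ± 0.19 (adjusted p 0.183), and Rps27l, a p53 target in human cells, gave 0.18 ± 0.52 (adjusted p 0.799). The remaining 7 paralogue probes did not enter the test, and 6 of them (Rps10l1, Rpl22l2, Rps15al2, Rpl3l, Rpl31l3 and Rpl39l) were at 0 counts in 288 to 309 of 311 libraries, Rpl3l being the muscle form of Rpl3. The 5 lowest members by mean CPM were Rpl39l, Rps22, Rpl31l3, Rpl17 and Rpl3l, each at 0 counts in 296 to 309 libraries. The unmatched rows Rps74 and Rps185 gave 1.63 ± 0.82 and 0.99 ± 0.52 (adjusted p 0.11 and 0.129). They and Rps27l were the 3 tested probes with an estimate above 0.

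**Figure D2:**
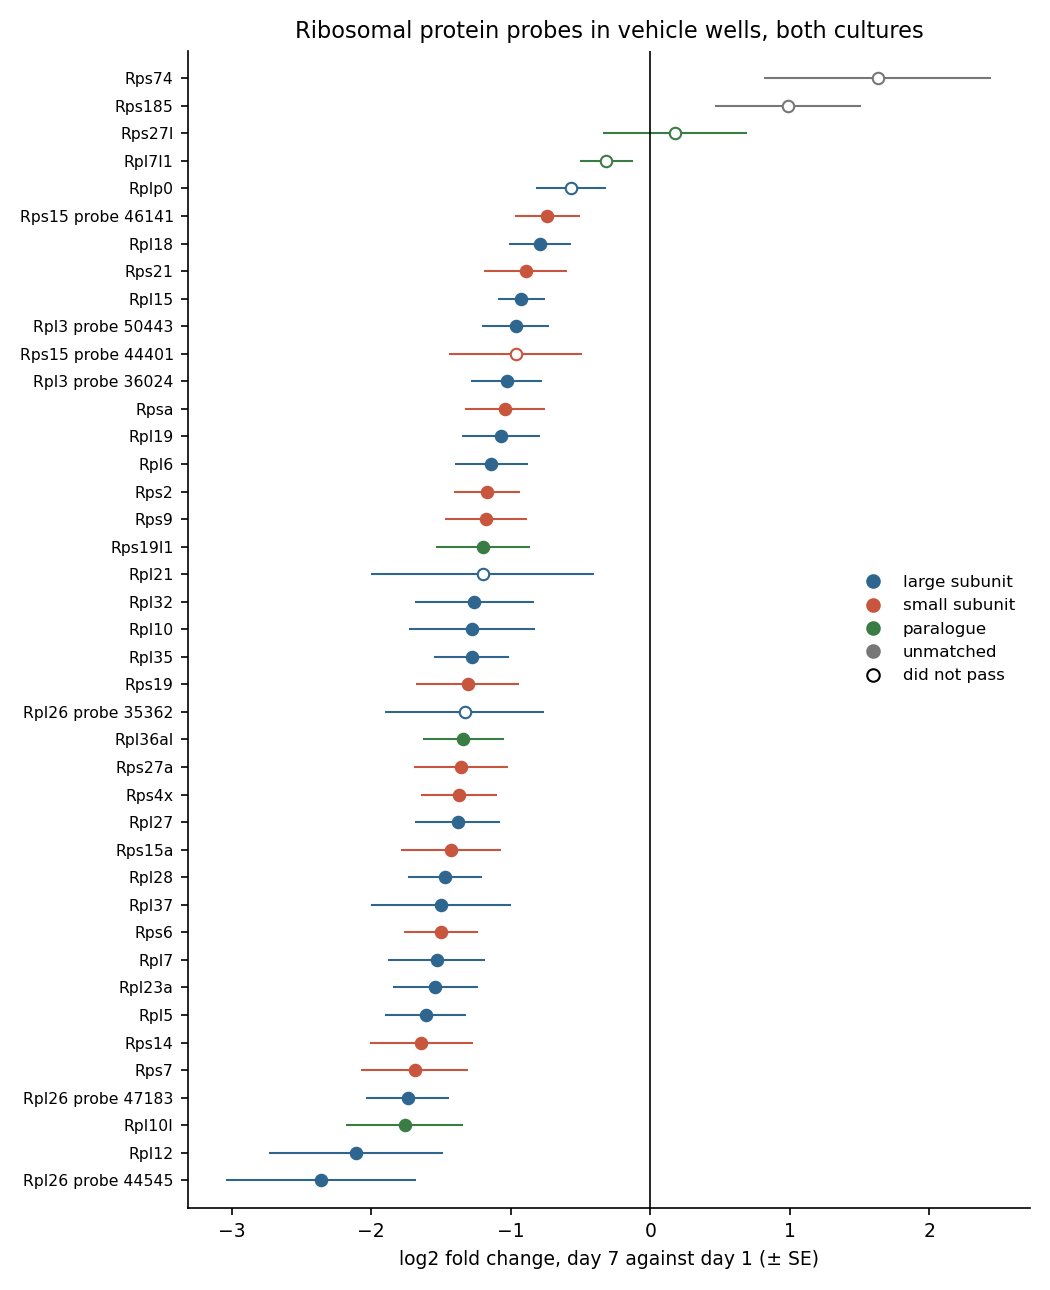
Log2 fold change (± SE) of 41 of the 42 tested ribosomal protein probes between day 7 and day 1 in vehicle wells of both cultures, 8 libraries a day. Filled points passed an adjusted p of 0.05: 33 of the probes drawn lie to the left of 0 and pass, and the open points are the 8 that did not pass.

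Probes fell with and without the motif at the start. Of 13 symbols with CTTT or CTCT near the start, 12 had a probe that fell, and of 14 symbols without it, 11 did. Of all 11687 probes tested, 2171 fell, and these were not split by motif. The split rests on annotated starts, which need not be those used in these cells. The median log2 fold change was -1.18 over 15 probes with the motif, such as Rpl28, Rpl35 and Rps14 above, and -1.32 over 16 probes without it, such as Rps6, Rpl5 and Rpl26. No test was made of this difference.

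The probes that passed were mostly not the same in the earlier and the later step. From day 1 to day 3, 9 of 42 probes fell and 0 rose, against 11.8% and 9.26% of all probes, and from day 3 to day 7, 25 fell and 1 rose (the unmatched Rps74, 2.26 ± 0.86, adjusted p 0.0402), against 14.6% and 25.0% of all probes. Only Rps6 fell in both steps. A first set of 8 probes fell by day 3 and did not pass afterwards, among them Rps14, Rps15 probe 46141, Rpl7, Rpl12 and Rpl26 probe 44545. A second set of 24 probes fell after day 3 without passing before it, among them Rps19, Rps27a, Rpsa, Rpl15, Rpl23a, Rpl35, Rpl37, Rplp0 and both Rpl3 probes. The 2 steps share their day 3 libraries, so a low or high day 3 level moves both, and whether the 2 steps of a probe differ was not tested. Of the others, Rpl10 and Rpl32 passed only between day 7 and day 1. Taken apart by culture, the later step gave 1 falling probe of 42 in co-culture (median -0.49) and 22 in monoculture (median -1.20), against 5.96% and 7.67% of all probes that fell in each. The earlier step gave 2 in co-culture (median -0.40) and 0 in monoculture (median -0.24, 4 at an unadjusted p under 0.05), against 5.89% and 0.916% of all probes. In monoculture 2024 of all 11687 probes had an unadjusted p under 0.05. The difference of the response between cultures was called for 0 of 42 probes in either step by edgeR, with 0 at an unadjusted p under 0.05 in both, beside 0.0% of all probes. Of all 11687 probes, 345 in the earlier and 374 in the later step reached an unadjusted p under 0.05, fewer than chance alone gives. The lack of calls therefore does not show that the cultures respond alike.

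Rps14, a protein of the small subunit's platform, had in co-culture wells (plates 1, 3, 5 and 7) 883, 1516, 2297 and 1736 CPM by day 1; 264, 449, 507 and 566 CPM by day 3; and 256, 223, 690 and 1102 CPM by day 7. In monoculture it had 1146, 679, 1645 and 1743 CPM by day 1; 291, 361, 751 and 956 CPM by day 3; and 346, 122, 333 and 709 CPM by day 7. In co-culture every day 3 well was below every day 1 well. It fell by 1.50 ± 0.37 on the log2 scale by day 3 (adjusted p 0.00557) and gave -0.15 ± 0.36 afterwards (adjusted p 0.763). Rps19 passed in the later step. Co-culture wells had 5358, 5637, 4023 and 5821 CPM by day 1; 7746, 5011, 6372 and 6762 CPM by day 3; and 569, 894, 5257 and 3127 CPM by day 7. Monoculture wells had 4566, 2524, 3977 and 4799 CPM by day 1; 8676, 3756, 5396 and 5701 CPM by day 3; and 1102, 438, 1699 and 2249 CPM by day 7. The day 7 wells were the lowest in monoculture, and in co-culture plate 5 stayed within the earlier range. Its estimate was 0.44 ± 0.36 by day 3 (adjusted p 0.412) and -1.75 ± 0.37 afterwards (adjusted p 0.00101). In the second step the smallest adjusted p were those of Rpl15 (-1.12 ± 0.17, 4.88e-05) and Rpl23a (-1.52 ± 0.30, 0.000607), and Rpl37 had -2.19 ± 0.51 (0.00199). The early count moved with the plates: without each plate in turn it was 4, 4, 1 and 4 of the tested probes (plates 1, 3, 5 and 7). The count of the later step was not recomputed in this way.

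**Figure D3:**
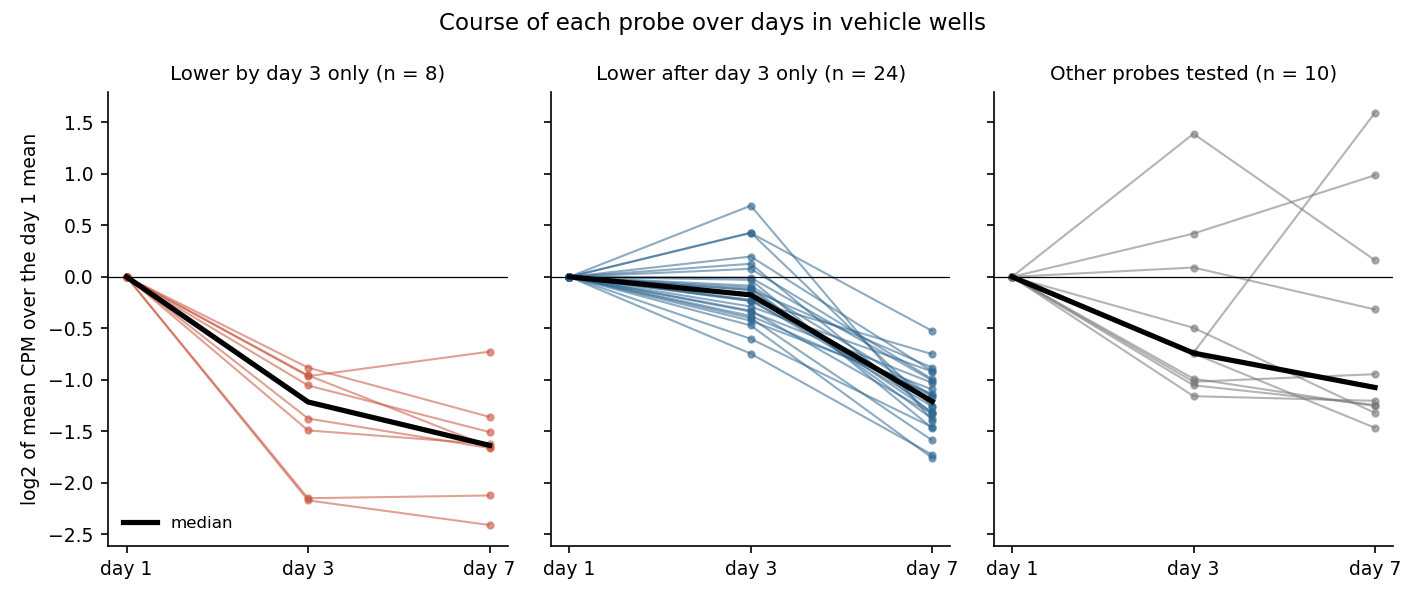
Log2 of the mean CPM in vehicle wells on each day over the day 1 mean, 1 line a probe and black for the median, split by the step in which a probe passed as lower. The panels hold 8, 24 and 10 probes and were chosen by tests on these same libraries, so their different shapes restate that choice.

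In the cultures taken apart, co-culture gave 14 falling probes between day 7 and day 1 and monoculture 28, against 8.45% and 10.5% of all probes that fell in each. The medians were -1.08 in co-culture and -1.50 in monoculture. The response itself did not pass a test of its difference for any probe: co-culture minus monoculture gave 0 of 42 called by edgeR and 0 at an unadjusted p under 0.05, beside 0.0% of all probes, with a median of 0.45 and 38 estimates above 0. Only 29 of all 11687 probes had an unadjusted p under 0.05 there, fewer than chance alone gives. That fit held no plate term, and its lack of calls does not show that the cultures respond alike. The counts of 14 and 28 moved with the plates. With library totals they were 4 falling and 1 rising in co-culture and 17 falling in monoculture. The co-culture count was 1 without plate 1, 0 without plate 3, 17 without plate 5 and 9 without plate 7, and 29 with plate as a block. The monoculture count was 19 without plate 1, 20 without plate 3, 10 without plate 5 and 20 without plate 7, and 34 with plate as a block.

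No ribosomal protein probe passed between co-culture and monoculture. Over all wells of a day, 0 of 47 tested probes were called by edgeR on days 1, 3 and 7, against 0.298%, 0.0888% and 0.153% of all probes, and DESeq2 also called 0. At an unadjusted p under 0.05 there were 0, 3 and 1 of the ribosomal protein probes. Of all probes, 953 of 12419, 839 of 13513 and 656 of 13719 reached that cut. The median log2 fold changes of co-culture over monoculture were -0.03, -0.15 and 0.07 on days 1, 3 and 7. In vehicle wells of day 7 the median was 0.58, with 0 of 47 called by edgeR (0 at an unadjusted p under 0.05) and 0.0% of all 13719 probes called. Only 58 of all 13719 probes had an unadjusted p under 0.05 there, fewer than chance alone gives. The lack of calls therefore does not show equal levels.

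Many other genes of the translation machinery fell between the same days. Of all 11687 probes tested, 2171 fell and 2854 rose. Of 53 tested ribosome biogenesis genes, 23 fell and 1 rose, led by the nucleolar protein nucleolin (Ncl, -1.32 ± 0.21, adjusted p 2.98e-05). Of 28 initiation factors 13 fell and 0 rose, the smallest adjusted p being those of Eif3h, Eif3k, Eif3l and Eif3j of the eIF3 complex, and of 10 elongation and termination factors 6 fell and 3 rose, with Eef2 at -1.15 ± 0.23 (adjusted p 0.000317). Of 13 other transcripts known to carry a 5′ TOP element, 11 fell and 0 rose, with a median of -1.10. Gnb2l1, the scaffold protein RACK1 of the small subunit, gave -1.47 ± 0.21 (adjusted p 9.18e-06). Of 72 mitochondrial ribosomal protein probes, encoded in the nucleus and serving a separate ribosome, 48 fell and 0 rose, with a median of -0.97. A further 26 rows held a ribosomal protein name with a number attached to it and lay outside the naming rule: 20 of 22 tested fell and 2 rose, with a median of -1.46. Eif4ebp1, a translation repressor that acts when growth signals are low, fell by 1.47 ± 0.16 on the log2 scale (adjusted p 2.12e-07). Of 23 growth and nutrient regulators 6 rose and 3 fell, which lies near the shares of all probes.

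Most lists of cell type markers moved over the same days, when 2854 of all 11687 probes tested rose and 2171 fell. The 25 hepatocyte probes summed to 5720 to 38400 CPM in vehicle wells on day 7, against 55300 to 126000 CPM on day 1, and 16 of 22 tested fell while 0 rose. The 20 stellate and mesenchymal probes summed to 1810 to 24700 CPM on day 7, against 109 to 528 CPM on day 1 when Col1a1, Postn and Lum were at 0, and 15 of 16 rose. The 20 macrophage probes summed to 450 to 2140 CPM on day 7, against 167 to 386 CPM on day 1 when Fcer1g was at 0, with 10 of 18 rising and 2 falling. The 14 cholangiocyte and progenitor probes summed to 857 to 2380 CPM on day 7, against 111 to 214 CPM on day 1 when Krt7 was at 0, and 8 of 10 rose. The 18 endothelial probes summed to 40.9 to 454 CPM on day 7 with Stab2 at 0, against 39.4 to 202 CPM on day 1, and 2 of 14 rose, a smaller share than that of all probes. The 14 lymphocyte, neutrophil and erythroid probes stayed at 0.78 to 10.0 CPM on day 7, against 0 to 1.95 CPM on day 1. The part of these changes in the ribosomal protein result was not tested.

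Few ribosomal protein probes passed for the compounds. At the top dose, tested over both cultures against vehicle, at most 6 of 47 probes passed in any compound and day, and 0 passed on day 7 for each of the 4 compounds. All compound comparisons of a day share the same 8 vehicle libraries. On day 7 the background was 6.12% of all probes for phenobarbital, 0.0% for gemfibrozil, 0.0219% for GW7647 and 0.656% for ketoconazole. At an unadjusted p under 0.05 there were 1, 3, 0 and 6 ribosomal protein probes in that order. Of all 13719 probes, 2878, 634, 340 and 2237 reached that cut. DESeq2 called 1 ribosomal protein probe for ketoconazole and 0 for the other compounds. At the lower doses, 23 of 24 comparisons over both cultures called 0 ribosomal protein probes by edgeR, against 0.137% (0.1 µM) and 0.0161% (0.01 µM) of all probes for GW7647 on day 1, 0.0592% for 0.1 µM GW7647 on day 3, 0.113% and 0.0219% for 10 µM ketoconazole on days 1 and 7, and 0.0% for the others. In those 23 the count at an unadjusted p under 0.05 was 0 to 19 and was highest for 0.1 µM GW7647 on day 1, with a median of -0.58. In that comparison 2222 of all 12419 probes reached the same cut.

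**Figure D4:**
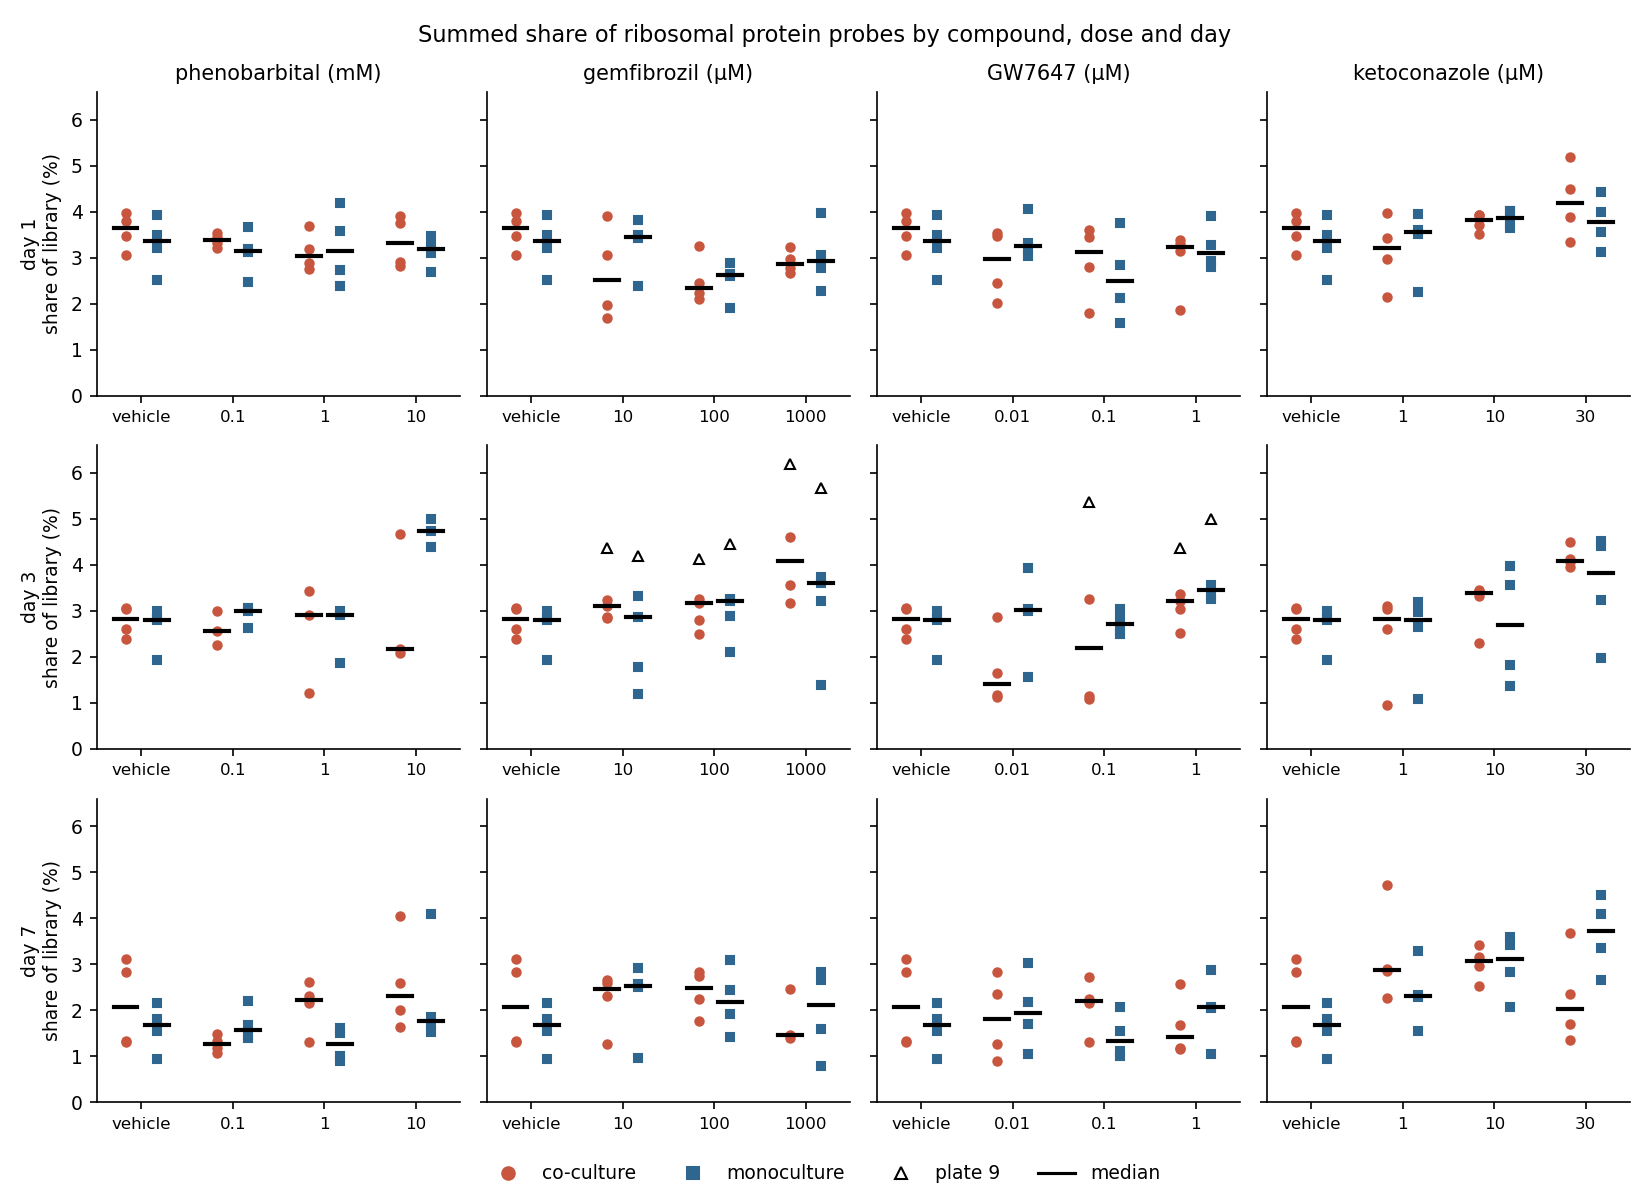
Share of the library (%) in the 55 ribosomal protein probes for vehicle and each dose, by day (rows) and compound (columns), 1 point a library with group medians. Open triangles are plate 9, which lie at 4.12 to 6.2%; the 4 monoculture wells at 30 µM ketoconazole on day 7 lie at 2.66 to 4.51%, above all 4 of their vehicle wells.

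Ketoconazole wells of monoculture on day 7 had a higher share than vehicle, a comparison singled out after its values were seen. Wells with 30 µM held 2.66, 4.09, 4.51 and 3.34% (plates 1, 3, 5 and 7), against 1.55, 0.933, 1.81 and 2.17% in vehicle wells, with no overlap. In co-culture on day 7 the range was 1.34 to 3.68% with 30 µM and 1.30 to 3.11% with vehicle. Rps6 had 2852, 5963, 6155 and 4396 CPM in ketoconazole monoculture, against 1406, 936, 1786 and 2092 CPM in vehicle monoculture, a rise of 1.64 ± 0.47 (log2 ± SE, edgeR's quasi-likelihood test, adjusted p 0.0302). Rps14 had 1114, 1850, 1247 and 1262 CPM in ketoconazole monoculture, against 346, 122, 333 and 709 CPM in vehicle monoculture, a rise of 1.86 ± 0.57 (adjusted p 0.0401). For both genes the groups did not overlap. These 2 were the probes that rose of 47, against 1.58% of all probes. An unadjusted p under 0.05 was reached by 24 of the 47, against 3468 of all 13719 probes. The median of the 47 was 1.24, beside -0.28 for all probes. The co-culture gave 0 of 47, 0 at an unadjusted p under 0.05, and a median of 0.01, beside 0.0% of all probes. There 138 of all 13719 probes had an unadjusted p under 0.05, fewer than chance alone gives. The difference of the response between cultures had a median of -1.40 (co-culture minus monoculture) and 0 of 47 probes called, against 0.0219% of all probes. At an unadjusted p under 0.05 there were 11 of the 47, against 1382 of all 13719 probes. All monoculture compound groups of day 7 were compared with the same 4 vehicle wells. At the lowest dose Rps6 was also above them, without passing, with ketoconazole (log2 fold change 0.80), gemfibrozil (0.61), GW7647 (0.43) and phenobarbital (0.13). It was below them with the middle dose of GW7647 (-0.21) and of phenobarbital (-0.44). The part of these vehicle wells in the ketoconazole result was not tested.

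The result of top-dose ketoconazole in monoculture turned on single wells. The ketoconazole well of plate 1 was the library of 412414 counts, and without it 0 probes passed, with Rps6 at 1.82 (adjusted p 0.0618) and Rps14 at 1.95 (adjusted p 0.075). The count was also 0 without plate 3 or plate 5, 3 without plate 7, 9 with plate as a block and 18 with DESeq2.

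On day 3, 30 µM ketoconazole wells of co-culture held 3.94 to 4.51%, against 2.38 to 3.07% in vehicle wells, again with no overlap. Shares were compared with vehicle in every compound group, and this group was picked after the values were seen. Among many groups of this size some separate by chance. Rps6 had 6053, 6220, 5822 and 6674 CPM in these co-culture ketoconazole wells, against 3290, 2619, 3180 and 3860 CPM with vehicle. In monoculture it had 6431, 4583, 3035 and 6750 CPM with ketoconazole and 3114, 2266, 3856 and 4426 CPM with vehicle, and these overlapped through plate 5. Over both cultures 0 of 47 passed (background 3.1%, 0 with DESeq2), and 6 had an unadjusted p under 0.05, against 2351 of all 13513 probes. Rps6 was at 0.77 ± 0.35 (adjusted p 0.233) and the median was 0.48, beside 0.16 for all probes. With plate as a block 4 probes rose. On day 1, 1 of 47 rose (3 with plate as a block), against 7.82% of all probes that rose, and the median was 0.17.

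Many ribosomal protein probes fell with the middle dose of gemfibrozil on day 1 in the fit over both cultures, a comparison also singled out after its values were seen. With 100 µM, 19 of 47 probes fell and 3 rose, against 5.85% and 9.33% of all probes, and the median was -0.84, beside 0.09 for all probes. Rps4x, a small subunit protein encoded on the X chromosome, had 71.9, 82.6, 100 and 130 CPM in co-culture and 129, 132, 110 and 66.8 CPM in monoculture with 100 µM (plates 1, 3, 5 and 7). With vehicle it had 189, 209, 184 and 260 CPM in co-culture and 175, 129, 215 and 236 CPM in monoculture, so that only the monoculture vehicle well of plate 3 was as low as the treated wells. Its fold change was -0.95 ± 0.25 (adjusted p 0.0174). Rpl5 had 965, 728, 1380 and 1842 CPM in co-culture and 1897, 1714, 1498 and 668 CPM in monoculture with 100 µM, against 3477, 3499, 3060 and 3602 CPM in co-culture and 3351, 1767, 2863 and 3507 CPM in monoculture with vehicle. Again the vehicle well of monoculture plate 3 lay among the treated wells, and the fold change was -1.23 ± 0.33 (adjusted p 0.0181). Rps2, the small subunit protein at the entry of the message, gave -1.05 ± 0.29 (adjusted p 0.0207).

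The fall at 100 µM did not follow the dose. The medians were -0.46 at 10 µM, -0.84 at 100 µM and -0.45 at 1000 µM, and 0 probes fell at 10 µM and at 1000 µM. At an unadjusted p under 0.05 there were 8 at 10 µM and 12 at 1000 µM, against 1922 and 3927 of all 12419 probes. In each culture alone 0 of 47 passed at 100 µM by edgeR, as did 0.0% of all probes. At an unadjusted p under 0.05 there were 34 in co-culture and 7 in monoculture, against 3184 and 1045 of all 12419 probes. The count called in either direction was 22, and it was 26 with DESeq2, 14 with library totals, 34 with plate as a block, 0 without plate 1, 26 without plate 3, 7 without plate 5 and 0 without plate 7, and without plate 1 or 7 no probe of the whole table passed. Of 13 other 5′ TOP transcripts 7 fell and 0 rose in the same comparison, and of 73 mitochondrial ribosomal protein probes 18 fell and 1 rose.

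The probes that rose at the top dose on day 1 were near the detection limit. Of 47 probes, 2 rose and 1 fell with phenobarbital (median -0.32), against 8.58% and 8.37% of all probes. With gemfibrozil 2 rose and 0 fell (median -0.45), against 9.05% and 7.92%. With plate as a block the counts called were 5 and 7. Rps16 probe 46089 passed with phenobarbital (adjusted p 0.00601), gemfibrozil (adjusted p 0.00525) and ketoconazole (adjusted p 0.00113). With 10 mM phenobarbital it had 1.43, 3.15, 1.89 and 1.37 CPM in co-culture and 0, 5.24, 3.66 and 0 CPM in monoculture (plates 1, 3, 5 and 7). With vehicle it had 0 counts in all 4 co-culture wells and 0.418, 1.15, 1.09 and 0.491 CPM in monoculture. Against a floor of 3 counts over the co-culture vehicle group (0.126 CPM), phenobarbital was at least 16.5-fold higher, gemfibrozil at least 25.2-fold and ketoconazole at least 20.0-fold. With 1 µM GW7647 it was at least 18.4-fold higher in co-culture, where the fit over both cultures did not pass (adjusted p 0.459). The unmatched row Rpl262, also at 0 in those 4 wells, passed with phenobarbital and gemfibrozil (adjusted p 0.0363 and 0.0453). The second Rps16 probe (40295), at 0 in 173 libraries, passed at 100 µM gemfibrozil (adjusted p 0.036). The highest level of either Rps16 probe in any library was 10.5 CPM. Neither Rps16 probe nor Rpl262 passed the low-count filter in the fit of vehicle wells alone. They entered the day 1 fit through treated wells, so the filter itself favoured a rise over vehicle. Their adjusted p and fold bounds are not independent of that choice.

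With 10 mM phenobarbital 1 of 47 probes fell on day 1 and 1 on day 3, both of them paralogues. Each was a smaller share than that of all probes that fell. Without each plate in turn 0 to 3 probes were called on either day. Rpl10l had 13.3, 12.9, 10.1 and 15.6 CPM in co-culture and 14.5, 13.5, 10.0 and 18.5 CPM in monoculture with 10 mM on day 1. With vehicle it had 17.4, 23.6, 28.7 and 51.2 CPM in co-culture and 17.1, 20.6, 26.2 and 52.0 CPM in monoculture. Each phenobarbital well was below the vehicle well of its plate and culture, although the groups as a whole overlapped, and the fold change was -1.13 ± 0.40 (adjusted p 0.0376). Rps27l on day 3 had 0.997, 0 and 0.773 CPM in co-culture and 2.51, 1.02 and 2.29 CPM in monoculture with 10 mM (plates 1, 5 and 7). With vehicle it had 8.81, 3.30, 2.30 and 0.996 CPM in co-culture and 16.3, 2.01, 2.52 and 3.54 CPM in monoculture (plates 1, 3, 5 and 7). The groups overlapped, the highest values being the vehicle wells of plate 1. The phenobarbital levels, at most 2.51 CPM, were near the detection limit. The fold change of Rps27l was -2.12 ± 0.75 (adjusted p 0.049). It was the 1 of 47 probes called on day 3, against 7.33% of all probes that fell, and 6 were called with plate as a block. The summed share of monoculture wells with 10 mM phenobarbital on day 3 was 4.39 to 5.0% (n = 3), against 1.94 to 3.0% with vehicle (n = 4), with no overlap, while co-culture wells with phenobarbital ran from 2.09 to 4.67% (n = 3), against 2.38 to 3.07% with vehicle (n = 4). This comparison of shares was also picked from all compound groups after the values were seen. GW7647 at 1 µM called 0 of 47 probes on day 1 (background 0.362%, 4 at an unadjusted p under 0.05, 1 with DESeq2 and 1 with plate as a block). On day 3 it also called 0 (background 0.237%, 5 at an unadjusted p under 0.05, 3 with DESeq2). Of all probes, 800 of 12419 on day 1 and 2822 of 13513 on day 3 had an unadjusted p under 0.05.

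Gemfibrozil at 1000 µM on day 3 raised 6 of 47 probes, against 12.8% of all probes that rose, and 0 without plate 9. That plate held 9 libraries, all of day 3 and all of gemfibrozil or GW7647, with no vehicle well. Rpl32 had 49.6, 81.6, 54.9 and 1156 CPM in co-culture (plates 1, 5, 7 and 9) and 45.9, 9.51, 63.4, 56.7 and 1023 CPM in monoculture (plates 1, 3, 5, 7 and 9) with gemfibrozil. With vehicle it had 2.68, 26.7, 30.8 and 25.6 CPM in co-culture and 11.4, 22.3, 51.0 and 50.8 CPM in monoculture. The fold change was 3.39 ± 0.95 (adjusted p 0.00946). Rps14 (2.22 ± 0.55, adjusted p 0.00369) reached 14790 CPM in the monoculture well of plate 9, against 150 to 1361 CPM in the other 4. Rps15 probe 46141 (1.17 ± 0.32, adjusted p 0.00825) and Rpl10 (2.11 ± 0.75, adjusted p 0.0377) were also highest on plate 9 within each gemfibrozil group. The paralogue Rpl5l1 (adjusted p 0.012) had 26 and 16 CPM in the plate 9 wells, against at most 1.12 CPM in the other gemfibrozil wells and 0.21 CPM in the vehicle wells. Rpl5l1 did not pass the low-count filter in the fit of vehicle wells alone, so the filter itself favoured its rise over vehicle. With plate as a block 2 probes rose.

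Over 10 CPM, plate 9 differed by more than 2-fold from the median of the same groups' other libraries for 51.8% of 6934 probes (median of the 9 log2 ratios past 1 in either direction, pseudocount 1). Of 35 ribosomal protein probes over 10 CPM, 9 were higher and 6 lower by that measure (42.9%). Rpl32 ran at 658 to 1160 CPM on plate 9 and 5.22 to 81.6 CPM in the 33 other libraries, with no overlap. Rplp0 went the other way, at 8.85 to 102 CPM on plate 9 and 28.3 to 198 CPM in the others, with a median log2 ratio of -2.02, and Rpl37 had a ratio of -2.37. The summed share was 4.12 to 6.2% on plate 9, beside medians of 2.5 to 3.14% on the other plates of day 3. The labels name plate 9 as a plate and say nothing of how it was run.

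**Figure D5:**
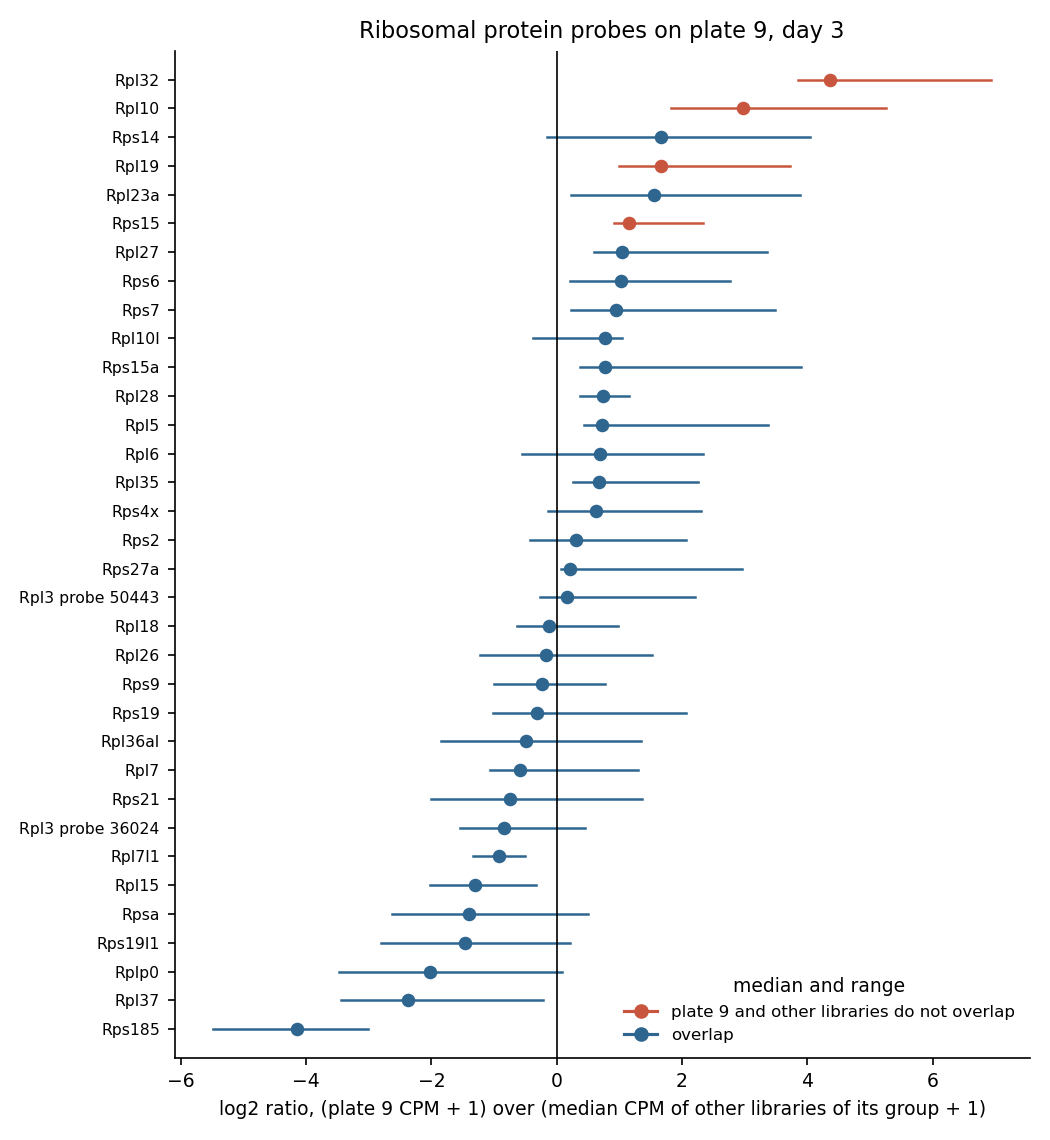
Log2 ratio of the plate 9 libraries to the median of the other libraries of their group on day 3, for 34 of the 35 ribosomal protein probes over 10 CPM; points are medians of 9 libraries and lines their range. Red marks probes whose plate 9 and other libraries do not overlap, with Rpl32 at 4.37 and Rpl10 at 2.98.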

How the data were processed

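TempO-Seq counts of 311 rat liver culture libraries were analysed as deposited. Per the labels' protocols the assay, sequencing and count table were made by BioSpyder, and the deposited values are raw counts per probe and well. Bowtie is named in the submitters' processing notes. For its settings and the genome build, nothing was given in the sources used here. The members and gene lists were chosen with earlier results of these data known.

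Groups came from the sample descriptions. In 33 monoculture phenobarbital libraries the chemical label reads ketoconazole, in 3 GW7647 libraries the dose label differs, and the description was used. Phenobarbital doses are in mM in the design text and in µM in the dose labels, and mM was used. Library sizes were scaled by TMM over all libraries. Probes passing edgeR's filterByExpr with a minimum count of 10 were tested with edgeR 4.0.16 (quasi-likelihood, R 4.3.3), in 1 fit per day and 1 of vehicle wells. Compound and time contrasts were averaged over both cultures. Benjamini-Hochberg adjustment covered all probes of a comparison, with a threshold of 0.05. The scripts were tested on simulated data. Alternatives were DESeq2 1.42.0, library totals, TMM within each fit, no filter, plate as a block and leaving out each plate. TMM within each fit and all alternatives for single cultures and the 100 µM gemfibrozil comparison were added after seeing the data.

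The numbers that pair libraries are the plates named in the titles. Residuals of vehicle libraries on the same plate had a mean correlation of 0.244, against -0.0806 between plates.

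Named genes were up to 6 members a direction and comparison by smallest p, paralogues, common reference genes, the 5 highest and 5 lowest by mean CPM, and up to 4 called genes of each other list. Floors of 3 counts cover counting error only, since reads carry no molecular identifiers that the labels name. Probe names were matched to the rat RefSeq table: 46 of 55 to a symbol and 3 to a synonym. The values of 1 member and 1 marker gene are not reported here.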

Additional observations from a re-analysis of the deposited data

Results flagged for a closer look

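In 71 groups of 4 or 5 libraries, 4 had a library whose ribosomal protein share lay far from the others of its group by Dixon's test; chance alone gives about 1 in 20. The share was 1.85% on plate 5 in co-culture with 1 µM GW7647 on day 1, against 3.14 to 3.37% in the other libraries. It was 4.36% on plate 9 in co-culture with 10 µM gemfibrozil on day 3, against 2.85 to 3.23%. In co-culture with 10 µM ketoconazole on day 3, plate 3 held 2.31%, against 3.32 to 3.45%. In monoculture with 10 mM phenobarbital on day 7, plate 3 held 4.08%, against 1.52 to 1.86%.

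The same test over 78 vehicle groups of 13 probes marked 3. Rpl28 had 863 CPM on plate 1 in co-culture on day 3, against 572 to 616 CPM. Rps27a had 1039 CPM on plate 3 in monoculture on day 1, against 2445 to 2652 CPM. Rpsa had 1118 CPM on plate 5 in co-culture on day 1, against 1498 to 1528 CPM.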

How the results depend on the processing

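Between day 7 and day 1, 34 ribosomal protein probes were called, all of them falling. In either direction the count was 32 to 39 under DESeq2, the plate block, no filter, TMM within the fit and library totals. With library totals some of the called probes rose, as given above. Without each plate in turn the count was 28 to 32. The early step, day 3 against day 1, gave 1 to 4 without each plate, against 9 with all.

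For the top doses the counts called were small and moved with the setting. With DESeq2 they were 2 for phenobarbital on day 3, 1 and 3 for GW7647 on days 1 and 3, 5 and 10 for gemfibrozil on days 1 and 3, and 3 and 1 for ketoconazole on days 1 and 7. With plate as a replicate block they were 5 and 6 for phenobarbital on days 1 and 3, 1 for GW7647 on day 1, 7 and 2 for gemfibrozil on days 1 and 3, and 3 and 4 for ketoconazole on days 1 and 3. With library totals they were 5 for phenobarbital, 2 for GW7647 and 10 for gemfibrozil on day 3, and 4 for gemfibrozil on day 1. With no filter they were 1 and 0 for phenobarbital on days 1 and 3, and 1 for gemfibrozil on day 1. Without each plate in turn the ranges were 0 to 3 for phenobarbital on days 1 and 3, 0 to 4 and 0 to 5 for gemfibrozil on days 1 and 3, and 1 to 3 for ketoconazole on day 1. The cause was not tested. The culture comparisons kept a count of 0 under all alternatives run.

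Of the fold changes of called probes recomputed under the alternatives, 814 kept their side of the threshold, 293 no longer passed it and 0 reversed. Library totals moved the median of all probes by 0.33 and 0.39 for phenobarbital on days 1 and 3 and by 0.50 for 100 µM gemfibrozil on day 1. Depth limits values under about 1 CPM, such as those of Rps16 probe 46089, which had 0 counts in the 4 co-culture vehicle wells of day 1.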
